A study of Mus musculus with 6 samples.

Results

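The genes described here are 31 markers of the neurons that share the cerebellum with granule cells: 11 genes of Purkinje cells, 15 of inhibitory interneurons and 5 of unipolar brush cells. They were chosen by symbol as markers of these classes, and all 31 were found among the 24594 entries of the count table. The data are nuclear RNA-seq counts from sorted nuclei of mouse cerebellum, labelled as granule cells, in 3 WT libraries (genotype Ezh1(wt/wt);Neurod1-Cre) and 3 cKO libraries (Ezh1(cKO/cKO);Neurod1-Cre), all from mice aged 7 months. Both genotypes therefore carry the Cre, and they differ in the conditional allele of Ezh1, which encodes a catalytic subunit of the Polycomb complex PRC2. The Cre is named for Neurod1, a transcription factor of granule neurons, and the labels do not say where it was placed or whether it acted in any other neuron of the cerebellum. Nor do they state that each library is a different mouse. The p-values therefore measure the spread among these 6 samples alone, and part of that spread may be technical.

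Purkinje cells are the large GABAergic output neurons of the cerebellar cortex. They receive the axons of granule cells, and in their dendrites phospholipase C and the IP3 receptor release calcium from internal stores. Basket, stellate and Golgi cells are the local inhibitory interneurons, which use GABA and, in part of the Golgi cells, glycine. Unipolar brush cells are excitatory interneurons of the granular layer, concentrated in the vestibular lobules, and arise like granule cells from the rhombic lip. The nuclei were sorted on NeuN, an antigen that is strong in granule cells and classically absent from Purkinje cells, and unipolar brush cells and many interneurons carry it to differing degrees. In RNA from many nuclei at once, fewer nuclei of a type and less RNA per nucleus cannot be told apart.

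Each library held 6340236 to 8284768 counts. Levels are given in CPM, a library's counts scaled to a common total and adjusted by TMM factors, and a count of 3, taken as the limit that a count of 0 allows, was worth 0.364 to 0.463 CPM (counting error only). Ezh1 itself was at 76.6 ± 6.19 CPM in WT and 53.0 ± 2.34 CPM in cKO (SD, n = 3), and the genotypes did not overlap. Replicate 1 of each genotype stood apart from the others: Xist, which is transcribed from the inactive X, was at 811 CPM in WT replicate 1 and 831 CPM in cKO replicate 1 against 1.39 to 4.46 CPM in the other libraries. The sum of 4 Y-linked genes was 1.51 CPM in WT replicate 1 and 2.45 CPM in cKO replicate 1. It was 123 to 148 CPM in the other libraries. By these genes, replicate 1 of each genotype had the RNA pattern of females and the other libraries that of males. Results that move with the replicate 1 libraries are given below with and without them.

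The medians of all 3 classes were far below that of granule cell markers, and the classes differed in level. Single genes overlapped, however. Per kb of annotated exon, granule cell markers began at 5.30 CPM. The highest Purkinje, interneuron and unipolar brush cell genes were at 30.3, 14.1 and 15.5 CPM. Levels of different genes were compared per kb of annotated exon. The median of 15 mature granule cell markers, such as Gabra6 and Fat2, was 39.3 CPM per kb. The median was 5.28 CPM per kb for the 11 Purkinje cell genes, 2.15 for the 15 interneuron genes and 0.146 for the 5 unipolar brush cell genes. Astrocyte and Bergmann glia markers had a median of 2.52 and oligodendrocyte markers of 6.22 CPM per kb. Both were above the median of the unipolar brush cell genes, and the Purkinje and interneuron medians were of the same order as the glial ones. Whether the authors counted exons only or whole gene spans is not given in the sources used here. Per kb of gene span, the medians were 14.6 for granule cell markers, 0.401 for Purkinje cell genes, 0.398 for interneuron genes and 0.0713 for unipolar brush cell genes, and the Purkinje and interneuron classes then lay close together.

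**Figure D1:**
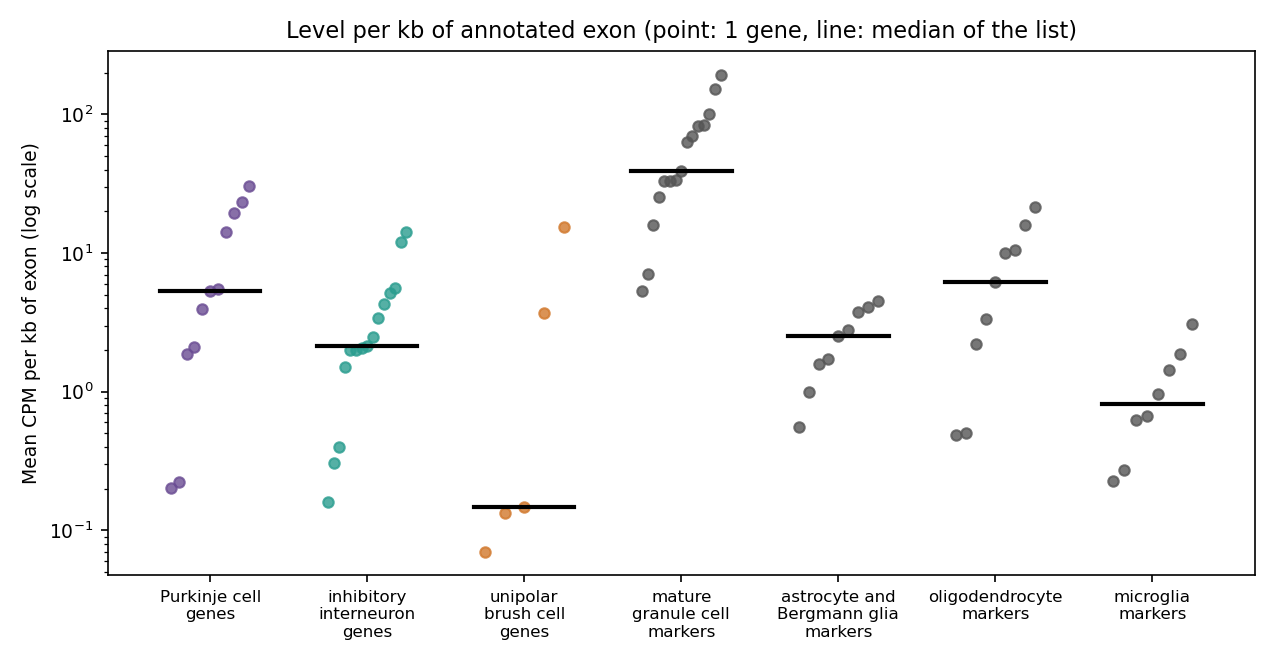
Mean CPM over the 6 libraries per kb of annotated exon (log scale), for the 3 classes and for 4 marker lists of other cells. Each point is 1 gene and each line the median of its list: granule cell markers have the highest median, at 39.3, and the unipolar brush cell genes the lowest, at 0.146, with Calb2 and Eomes well above the rest of that class.

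Enough counts for a test of genotype were found for 25 of the 31 genes, and none was called at an adjusted p below 0.05 by edgeR's quasi-likelihood test. Over all 13115 tested genes 0.579% were called (0.320% higher and 0.259% lower in cKO), so a set of this size with no call is not set apart from the rest. An unadjusted p below 0.05 was found for 6 of the 25, where all tested genes gave 11.9%: Eomes and Gad2 with a positive log2 fold change, and Lhx1, Lhx5, Homer3 and Kit with a negative one. DESeq2 also called none, but gave an adjusted p to only 10 of the 25; its unadjusted p was below 0.05 for 4. By limma-voom 6 genes had an unadjusted p below 0.05, and 1 of them, Eomes, was called. The genotypes did not overlap for 5 of the 25 genes, against 16.3% of all tested genes. Eomes and Gad2 lay above WT (7.88% of all tested genes did), and Lhx1, Lhx5 and Plcb3 below it (8.39%). The median log2 fold change (cKO over WT) of the 25 was -0.03, and that of all tested genes -0.01. For 21 of the 25 the 95% interval lay between log2 values of -1 and 1, which is within 2-fold, as it did for 81.0% of all tested genes.

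**Figure D2:**
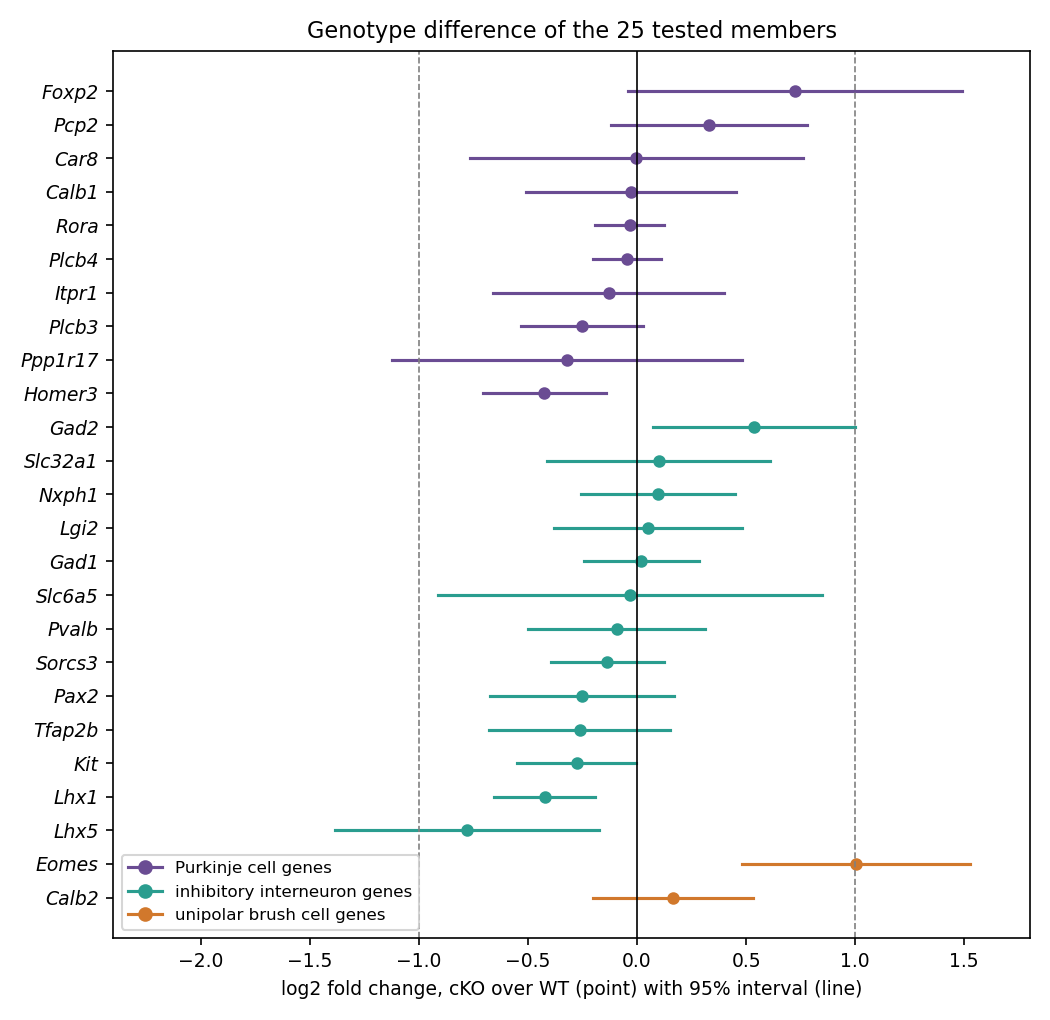
Log2 fold change of cKO over WT (points) with 95% intervals (lines) from edgeR for the 25 tested genes, by class. Dashed lines mark 2-fold; the intervals of Foxp2, Ppp1r17, Lhx5 and Eomes cross one of them, and that of Eomes runs from 0.48 to 1.53.

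Purkinje cell genes did not separate the genotypes as a group. Of the 10 tested, 2 had a positive and 8 a negative log2 fold change (median -0.04), edgeR called none, and 1 had an unadjusted p below 0.05. Calb1 and Car8, both near 0, were positive when scaled by library totals. The class summed to 1237, 1074 and 1032 CPM in WT replicates 1, 2 and 3 and to 1113, 971 and 1052 CPM in cKO replicates 1, 2 and 3, and the genotypes overlapped. The log2 ratio of the means was -0.09, but Itpr1 alone made up 39.7% of the sum. Plcb4 and Rora came next, at means of 272 and 255 CPM, and none of these 3 genes is restricted to Purkinje cells. The 7 more restricted markers (Pcp2, Calb1, Ppp1r17, Car8, Foxp2, Homer3 and Klhl1) summed to 102 ± 20.6 CPM in WT and 92.2 ± 22.8 CPM in cKO (SD, n = 3). Their log2 ratio of means was -0.15, the genotypes overlapped, and Homer3 made up 49.8% of that sum. With each gene weighed the same, the mean of log2(CPM + 0.5) over the 11 genes was higher in cKO by 0.068. That mean includes Klhl1, which had too few counts to test: 9, 2 and 3 in WT and 24, 8 and 9 in cKO.

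The most specific markers of the class were low but present in every library. Pcp2, which encodes a modulator of G protein signalling found almost only in Purkinje and retinal bipolar cells (chromosome 8, 3623369 to 3625547, GRCm38), was at 10.1, 7.52 and 8.98 CPM in WT and 13.4, 8.80 and 11.2 CPM in cKO. Its log2 fold change was 0.33 (SE 0.22, edgeR adjusted p = 0.60). Pcp2 shares 867 bases with Pet100, whose reads there cannot be told apart. Calb1, which encodes the calcium buffer calbindin, was at 12.4, 9.75 and 8.86 CPM in WT and 13.7, 6.95 and 9.54 CPM in cKO. Car8, which encodes a carbonic anhydrase-related protein that binds the IP3 receptor, was at 28.4, 15.7 and 17.2 CPM in WT and 27.8, 13.3 and 19.7 CPM in cKO. In both genes replicate 1 was the highest library of each genotype, and the genotypes overlapped almost fully, with log2 fold changes of -0.03 for Calb1 and -0.0027 for Car8. Ppp1r17, which encodes a protein phosphatase inhibitor, was at 4.68, 2.09 and 4.13 CPM in WT and 3.31, 1.85 and 3.54 CPM in cKO, and its 95% interval of -1.12 to 0.48 did not exclude a 2-fold lower level.

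Rora, a member of the class, encodes the nuclear receptor ROR alpha, which is known to bind the half-site AGGTCA after an AT-rich stretch and to act on Purkinje cell genes, Pcp2 among them. The 250 bases before the start of Pcp2 are shown because Pcp2 is the most restricted marker here, with AGGTCA in capitals; the match lies 12 bases before the start on the same strand, and the bases directly before it are not AT-rich (RefSeq, GRCm38.p6, chr8:3625548-3625797, minus strand).
Pcp2: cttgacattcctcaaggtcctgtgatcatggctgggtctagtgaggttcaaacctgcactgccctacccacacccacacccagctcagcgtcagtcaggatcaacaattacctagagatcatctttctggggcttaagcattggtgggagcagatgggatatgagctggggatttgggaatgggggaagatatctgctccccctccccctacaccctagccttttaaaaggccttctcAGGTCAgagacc
RefSeq start windows were matched for 24 of the 31 genes, with 34 windows among them. AGGTCA on either strand was found in 6 of the 34, from 4 genes (Pcp2, Homer3, Plcb3 and Lgi2), and in 14.0% of all 32851 windows of this length. Pcp2 has 4 windows, and 2 of its 3 matches are the same letters seen in overlapping windows.

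The genes of the phospholipase C and IP3 pathway were much more abundant than these markers. Plcb4, which encodes a phospholipase C beta, was at 30.3 CPM per kb of exon and Itpr1, the IP3 receptor, at 23.4, against 5.47 for Pcp2 and 2.10 for Calb1. Per kb of gene span the order was different, with Pcp2 at 4.59, Itpr1 at 1.27 and Plcb4 at 0.763. Itpr1 was at 557, 392 and 395 CPM in WT and 482, 340 and 407 CPM in cKO (log2 fold change -0.13, 95% interval -0.66 to 0.40), again with replicate 1 highest in each genotype. Plcb4 was at 273, 291 and 264 CPM in WT and 255, 275 and 272 CPM in cKO (-0.05, -0.20 to 0.11), with no such order. Plcb4 also marks a subset of unipolar brush cells, and neither gene is restricted to Purkinje cells.

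Homer3, which encodes a postsynaptic scaffold protein that binds the IP3 receptor, had the smallest p of the class. It was at 65.6, 56.8 and 44.5 CPM in WT and 48.1, 35.7 and 40.2 CPM in cKO. The genotypes overlapped, since cKO replicate 1 lay above WT replicate 3. Its log2 fold change of -0.42 (SE 0.14, 95% interval -0.71 to -0.14) did not pass the test (edgeR adjusted p = 0.178), and it shares 1496 bases with Ddx49. Plcb3, another phospholipase C beta, was at 31, 32.3 and 25.9 CPM in WT and 25.6, 25 and 24.0 CPM in cKO, so every cKO library lay just below every WT library (-0.25, edgeR adjusted p = 0.488). All 4 genes of this pathway had negative log2 fold changes, from -0.42 to -0.05, although Itpr1 was at 0.059 without WT replicate 1.

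Of the transcription factors, Rora, which is needed for Purkinje cell maturation and is also used by molecular layer interneurons, was at 249, 264 and 261 CPM in WT and 234, 261 and 261 CPM in cKO. Its 95% interval of -0.19 to 0.12 was the narrowest of the 25 after that of Plcb4. Foxp2, a forkhead factor of Purkinje cells and of neurons of the cerebellar nuclei, was low, at 3.17, 2.65 and 2.43 CPM in WT and 6.91, 3.71 and 2.92 CPM in cKO. The cKO value rested on replicate 1, with 48 of the 151 counts, and the log2 fold change of 0.72 (edgeR adjusted p = 0.462) became 0.28 without that library. Klhl1, an actin-binding Kelch protein gene, was below the filter, with WT counts of 9, 2 and 3 and cKO counts of 24, 8 and 9.

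**Figure D3:**
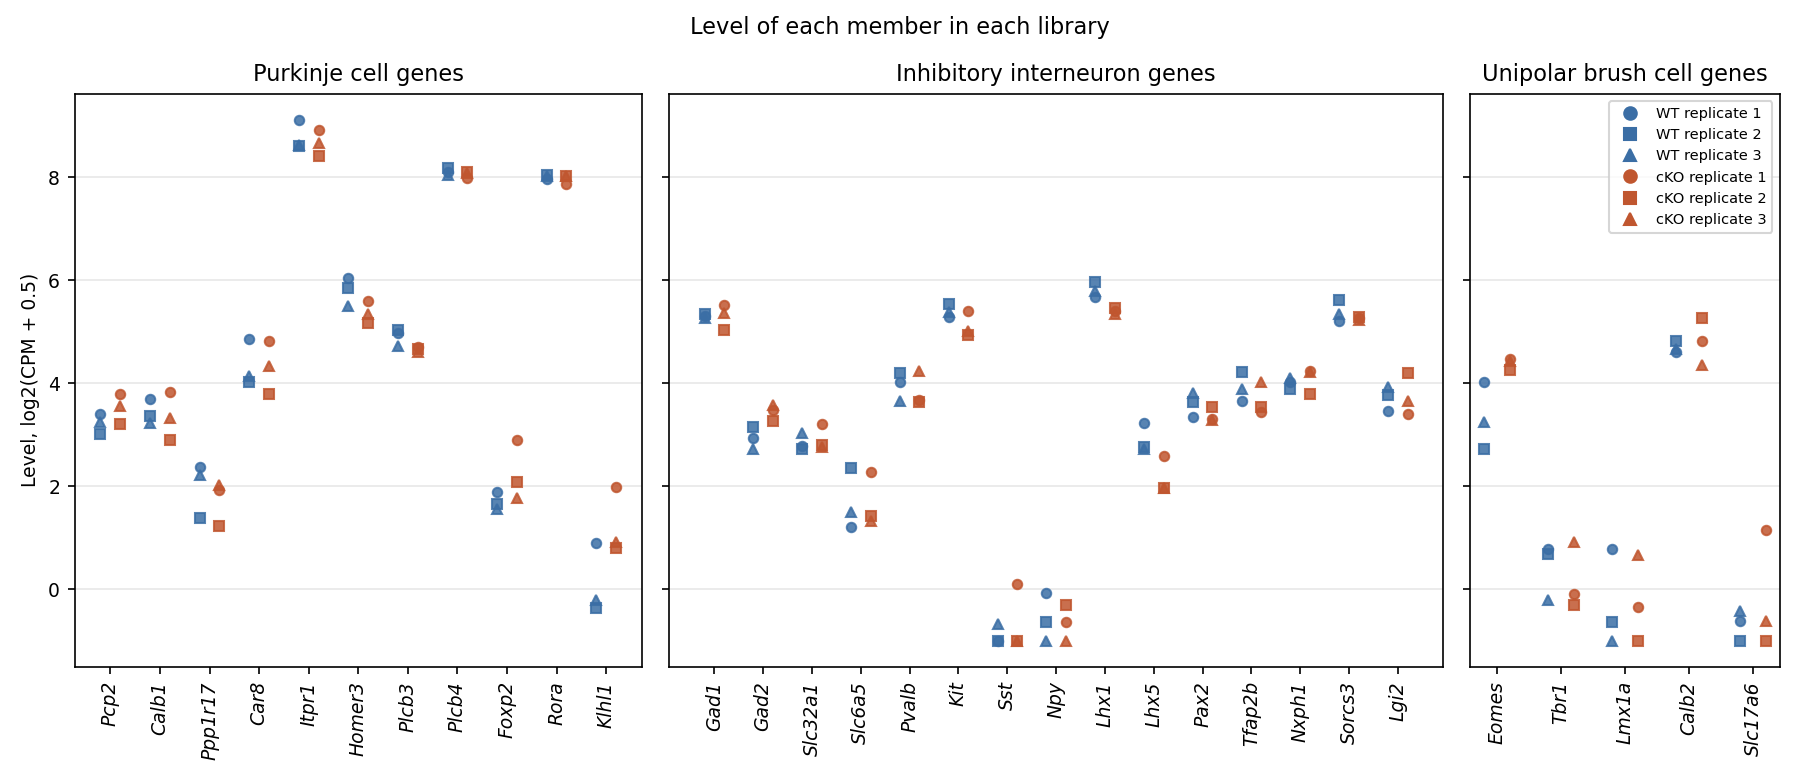
Level of each of the 31 genes in each library as log2(CPM + 0.5), by class; blue is WT and orange cKO, and circles, squares and triangles are replicates 1, 2 and 3. Eomes is the gene whose cKO points, 18.7 to 21.6 CPM, sit together above all WT points, 6.13 to 15.7 CPM, by the widest fold.

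Inhibitory interneuron genes likewise held no call. Of the 13 tested, 5 had a positive and 8 a negative log2 fold change (median -0.09), and 4 had an unadjusted p below 0.05. Slc6a5, near 0, was positive when scaled by library totals. The sum was 253, 298 and 268 CPM in WT and 257, 232 and 247 CPM in cKO, with a log2 ratio of means of -0.16. The lowest WT library, replicate 1, was below cKO replicate 1. Gad1, Gad2, Slc32a1, Pvalb, Lhx1 and Lhx5 are also genes of Purkinje cells. The 9 genes left without them summed to 142 ± 15.9 CPM in WT and 128 ± 4.37 CPM in cKO (SD, n = 3). Their log2 ratio of means was -0.15, and the genotypes overlapped.

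The genes for making GABA and loading it into vesicles, Gad1, Gad2 and Slc32a1, are used by Purkinje cells as well as by interneurons. Gad1, which encodes the larger of the GABA-synthesising enzymes, was at 39.1, 40.1 and 37.9 CPM in WT and 45.3, 32.4 and 40.8 CPM in cKO (log2 fold change 0.02, 95% interval -0.24 to 0.28); it shares 2055 bases with the noncoding gene Gad1os, which had 2 to 16 counts. Gad2, which encodes the synaptic form of the enzyme, was at 7.10, 8.36 and 6.07 CPM in WT and 10.6, 9.11 and 11.4 CPM in cKO. Every cKO library was thus above every WT library for Gad2 but not for Gad1. The Gad2 log2 fold change was 0.54 (SE 0.22) and did not pass the test (edgeR adjusted p = 0.329). Slc32a1, the vesicular transporter of GABA and glycine, was at 6.35, 6.13 and 7.65 CPM in WT and 8.78, 6.49 and 6.31 CPM in cKO. It shares 3464 bases with the noncoding gene Gm14204, which had more counts in every library (83 to 145, against 41 to 63 for Slc32a1). Slc6a5, the glycine transporter of glycinergic Golgi cells, was low, at 1.81, 4.60 and 2.31 CPM in WT and 4.32, 2.16 and 2.0 CPM in cKO.

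All 4 transcription factors of the class had negative log2 fold changes, and none was called. Lhx1, a LIM homeobox factor that Purkinje cells also express, was the most abundant of them, at 50.5, 62.1 and 55.2 CPM in WT and 41.6, 43.5 and 40.0 CPM in cKO. The genotypes did not overlap, and the log2 fold change was -0.42 (SE 0.11, 95% interval -0.65 to -0.19, edgeR adjusted p = 0.0829). It passed the threshold in the fits without WT replicate 1 (adjusted p = 0.0281) and without a filter on low counts (0.0258), and ranged up to an adjusted p of 0.421 over the other alternatives. Its relative Lhx5, likewise a gene of Purkinje cells too, was lower in level, at 8.92, 6.27 and 6.07 CPM in WT. In cKO it was at 5.47, 3.40 and 3.39 CPM (-0.78, SE 0.29, edgeR adjusted p = 0.264), also without overlap. Pax2, a factor of interneuron precursors, had a log2 fold change of -0.25 (9.67 to 13.6 CPM in WT and 9.23 to 11.1 in cKO), and Tfap2b, an AP-2 factor of the inhibitory lineage, one of -0.26 (12.1 to 18.1 and 10.4 to 15.7 CPM).

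Among the remaining interneuron genes, Kit, a receptor tyrosine kinase of basket and stellate cells, was at 38.7, 46.3 and 41.0 CPM in WT and 41.6, 30.3 and 32 CPM in cKO. Its log2 fold change was -0.28 (SE 0.13, edgeR adjusted p = 0.409), and cKO replicate 1 lay within the WT range. Pvalb, the calcium buffer parvalbumin of molecular layer interneurons and Purkinje cells, was at 15.7, 17.8 and 12 CPM in WT and 12.2, 11.9 and 18.5 CPM in cKO. Sorcs3, a sorting receptor gene, was at 36.3, 48.8 and 40.1 CPM in WT and 38.3, 38.6 and 36.9 CPM in cKO. The genotypes overlapped for both. Nxph1, which encodes a ligand of neurexins, had a log2 fold change of 0.09 and Lgi2, which encodes a secreted synaptic protein, one of 0.05. The neuropeptide genes Sst and Npy were nearly absent, with 5 and 7 counts over all 6 libraries, and 4 of the 5 Sst counts were in cKO replicate 1.

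Unipolar brush cell genes held the largest difference between genotypes among the 25 tested genes. Eomes, which encodes the T-box factor that defines these cells in the adult cerebellum (chromosome 9, 118478186 to 118486132), was at 15.7, 6.13 and 8.98 CPM in WT and 21.6, 18.7 and 21.1 CPM in cKO, or 104, 44 and 74 counts against 150, 121 and 137. The cKO libraries lay close together and above all WT libraries, while the WT libraries spread over more than 2-fold. The means were 20.5 ± 1.55 CPM in cKO and 10.3 ± 4.92 CPM in WT (SD, n = 3), a log2 fold change of 1.00 (SE 0.25, 95% interval 0.48 to 1.53). It did not pass the threshold (edgeR adjusted p = 0.0868). Over the 14 alternatives its log2 fold change stayed between 0.75 and 1.43, and it was called in 5 of them: by limma-voom (adjusted p = 0.0466), with replicate number as a block (0.0208), without a filter on low counts (5.36e-05), without WT replicate 1 (1.75e-04) and without replicate 1 of both genotypes (0.00926). The highest adjusted p was 0.358, without WT replicate 3. DESeq2 gave it no adjusted p. Eomes shares 547 bases with the gene Gm33408.

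The other genes of the class did not share this pattern. Calb2, which encodes the calcium buffer calretinin and is also expressed by granule cells, was at 23.7, 27.9 and 24.9 CPM in WT and 27.9, 37.8 and 20.0 CPM in cKO, with the highest and the lowest library both in cKO (log2 fold change 0.16, 95% interval -0.20 to 0.53). Lmx1a, a LIM homeobox factor of unipolar brush cells and their rhombic lip precursors, had WT counts of 8, 1 and 0 and cKO counts of 2, 0 and 7, with the most in WT replicate 1. Tbr1, a T-box factor of excitatory neurons of the cerebellar nuclei, had WT counts of 8, 8 and 3 and cKO counts of 3, 2 and 9. Slc17a6, the vesicular glutamate transporter of such projection neurons and of unipolar brush cells, had WT counts of 1, 0 and 2 and cKO counts of 12, 0 and 1. At this depth no difference of Lmx1a, Tbr1 or Slc17a6 between genotypes was detectable. The class summed to 42.0, 35.2 and 34.5 CPM in WT and 51.9, 56.8 and 43.7 CPM in cKO, a log2 ratio of means of 0.45. Calb2 and Eomes carried this sum, with Calb2 at 61.4% of it, so it is not a measure that these markers share.

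Eomes and Lhx1 were the genes of smallest p, in opposite directions. Their start windows are shown with the CG pairs in capitals, because CpG-rich starts of developmental transcription factors are classic sites of PRC2 in mammals. The Eomes window held 8 CG pairs (chr9:118477939-118478188, plus strand) and the Lhx1 window 26 (chr11:84525535-84525784, minus strand), both RefSeq, GRCm38.p6.
Eomes: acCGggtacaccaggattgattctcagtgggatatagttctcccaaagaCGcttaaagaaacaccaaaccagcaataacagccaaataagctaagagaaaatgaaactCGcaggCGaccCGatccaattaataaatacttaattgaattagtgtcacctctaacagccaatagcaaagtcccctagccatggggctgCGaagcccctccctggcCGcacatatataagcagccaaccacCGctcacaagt
Lhx1: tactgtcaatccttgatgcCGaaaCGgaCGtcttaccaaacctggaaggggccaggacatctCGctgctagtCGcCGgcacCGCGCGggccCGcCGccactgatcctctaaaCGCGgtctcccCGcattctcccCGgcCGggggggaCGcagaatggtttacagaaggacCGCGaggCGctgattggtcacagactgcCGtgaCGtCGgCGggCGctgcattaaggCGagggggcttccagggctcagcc
Of all windows of this length, 43.0% held at least as many CG pairs as Eomes and 9.59% at least as many as Lhx1. The 9 windows of member transcription factors had a median of 9 CG pairs, the 25 windows of the other members 11 and all windows 6. These files hold no measure of H3K27me3 at either start.

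**Figure D4:**
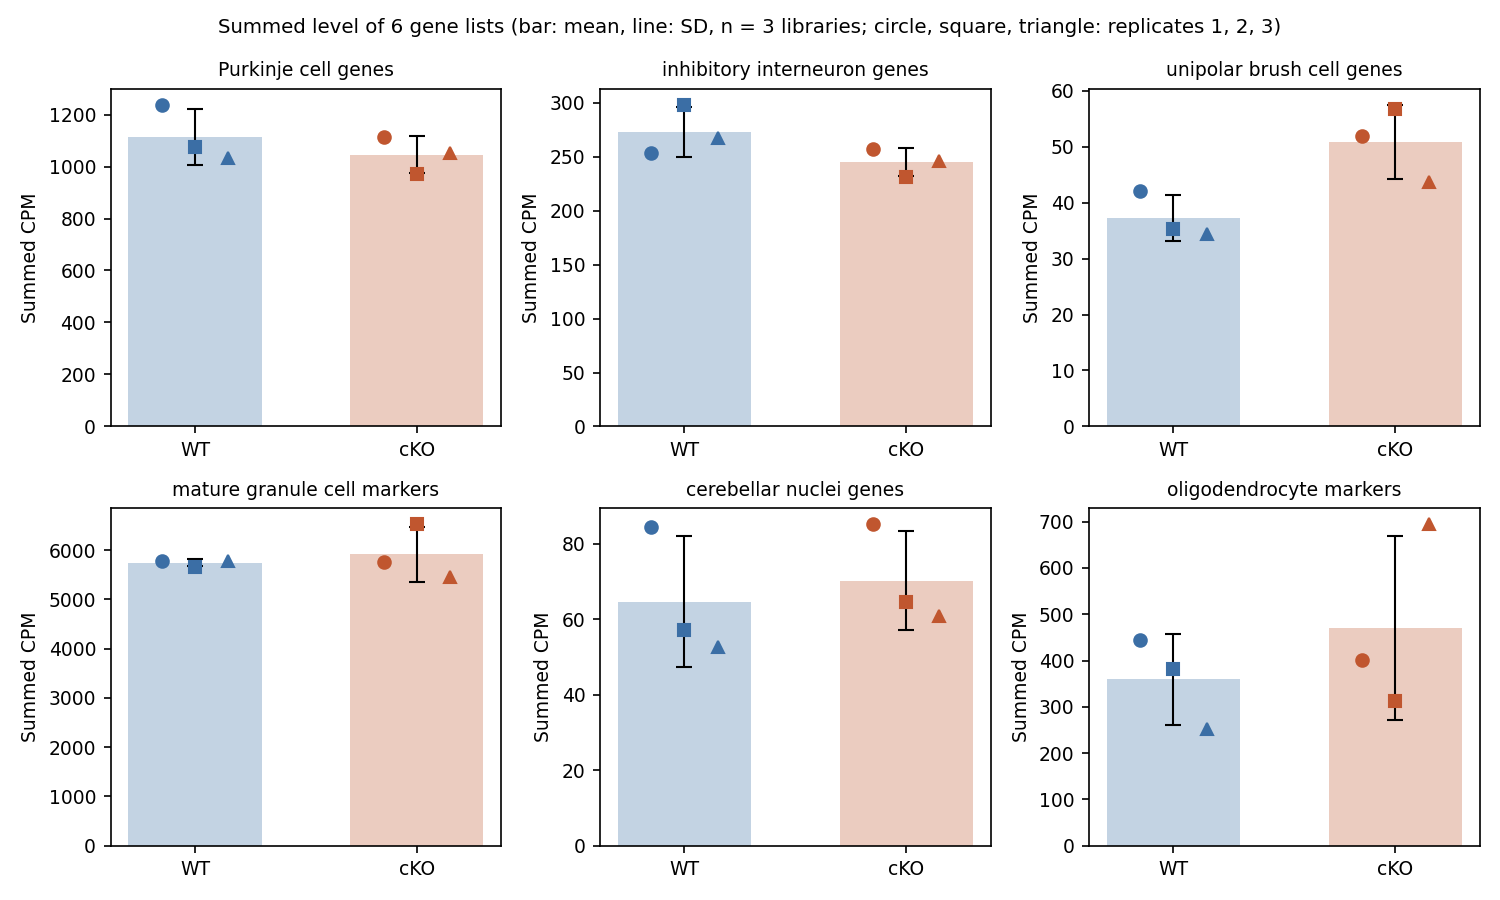
Summed CPM of the 3 classes and of 3 lists of other markers, with the mean (bar), the SD (line, n = 3 libraries) and each library (circle, square and triangle for replicates 1, 2 and 3). The genotypes overlap in the Purkinje and interneuron sums, and the lowest cKO library of the unipolar brush cell sum, 43.7 CPM, lies just above the highest WT library, 42.0 CPM.

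The libraries differed in Purkinje cell genes more than the genotypes did. Pcp2, Calb1, Ppp1r17 and Car8 summed to 55.6, 35.1 and 39.2 CPM in WT and 58.1, 30.9 and 44.0 CPM in cKO. Replicate 1 was therefore 1.5 times the mean of replicates 2 and 3 in WT and 1.55 times in cKO, while the genotype means, 43.3 and 44.3 CPM, were nearly equal. Pcp2, Calb1, Car8, Itpr1, Homer3 and Foxp2, 6 of the 10 tested Purkinje cell genes, had replicate 1 as the highest library of both genotypes, and so did 11.9% of all tested genes. This pattern was chosen after the values were seen. It was also found for 5 of 14 further Purkinje cell genes, 1 of 13 interneuron genes (Lhx5), 1 of 2 unipolar brush cell genes (Eomes), 2 of 3 microglia markers and 1 of 15 granule cell markers, and the difference between lists was not tested. Rora and Plcb4 did not follow it, with replicate 1 at 0.950 and 0.984 times the others in WT and 0.897 and 0.932 times in cKO. These replicates are also the libraries with high Xist and low Y-linked RNA. The edgeR fit held no term for that difference, and its part in the pattern was not tested. Without replicate 1 of both genotypes, the log2 ratio of the summed class was -0.06 for Purkinje cell genes, -0.24 for interneuron genes and 0.53 for unipolar brush cell genes.

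**Figure D5:**
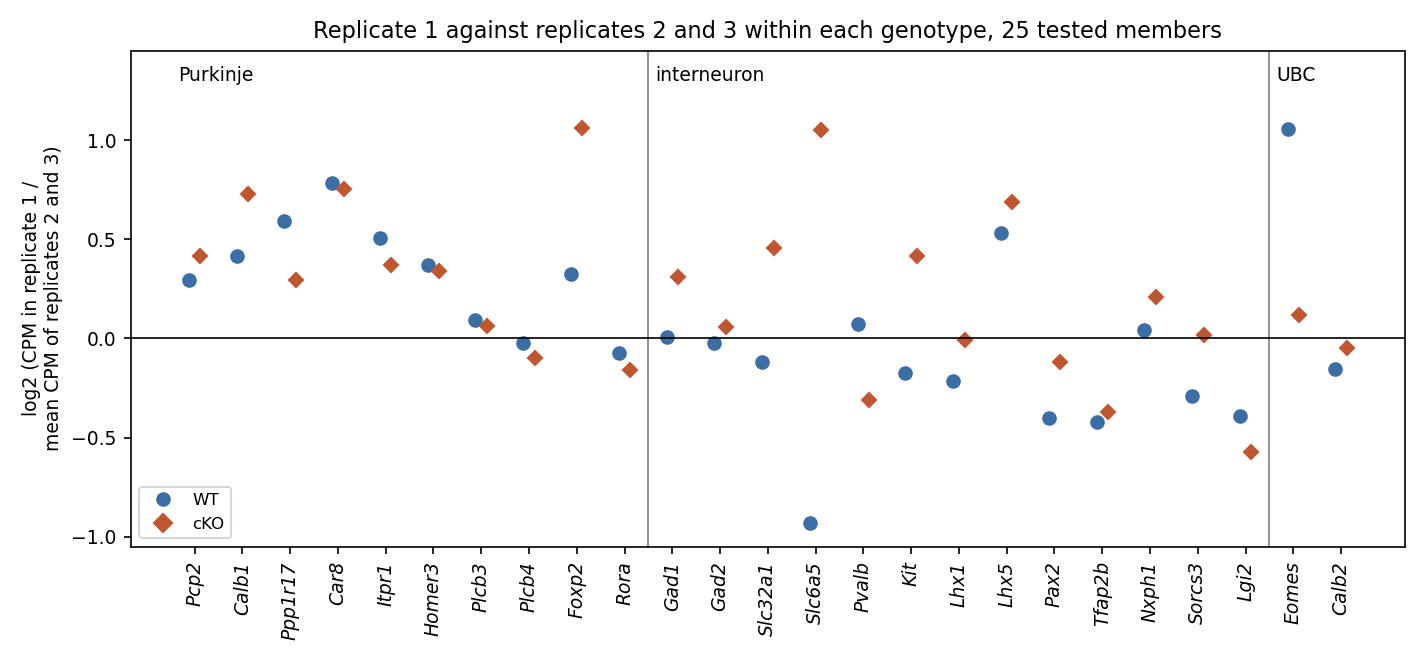
Log2 ratio of replicate 1 to the mean of replicates 2 and 3 within WT (circles) and within cKO (diamonds), for the 25 tested genes. Points of Pcp2, Calb1, Ppp1r17, Car8, Itpr1, Homer3, Plcb3 and Foxp2 lie above 0 in both genotypes, those of Car8 at ratios of 1.72 and 1.68, whereas interneuron genes lie on both sides.

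A single library, cKO replicate 1, held most counts of Slc17a6 (12 of 16) and Sst (4 of 5), and 24 of the 55 Klhl1 counts. Genes of the cerebellar nuclei moved with it: Meis2 was at 7.63 CPM there against 0.607 to 1.69 CPM in the other libraries, Lhx9 at 3.74 against at most 0.463 CPM, and Lhx2 at 2.16 against at most 0.463 CPM. These 3 genes encode homeobox factors, and they were picked after their values were seen. Nefm, a neurofilament gene on that list, was also highest there, at 69.4 CPM, but by less, since the other libraries were at 51.1 to 64.8 CPM. Spp1 was highest in WT replicate 1 (18.6 CPM). Without cKO replicate 1 the log2 fold change was 0.96 for Eomes (edgeR adjusted p = 0.329) and -0.42 for Lhx1 (0.321).

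Other markers of the same cell classes, from lists that do not hold the 31 genes, likewise held no call. Of 14 tested further Purkinje cell genes, 7 had a positive and 7 a negative log2 fold change (median 0.0024), and none had an unadjusted p below 0.05 or was called by edgeR. The smallest p values were those of Arhgef33, a guanine nucleotide exchange factor gene (-0.37, edgeR adjusted p = 0.523), and Slc1a6, the glutamate transporter of Purkinje cell spines (-0.30, 0.577). Of 8 tested further interneuron genes, 3 were positive and 5 negative (median -0.05), with Ptprk at 0.20 and Tfap2a, another AP-2 factor, at -0.18. Otx2, a factor of unipolar brush cells, had WT counts of 3, 3 and 4 and cKO counts of 6, 4 and 6, too few to test; it was singled out after its values were seen.

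Markers of other cells overlapped between genotypes in their sums, as did granule cell markers. The 15 granule cell markers summed to 5665 to 5787 CPM in WT and 5453 to 6523 CPM in cKO, all 15 were detected in every library, and Neurod1, which is higher in cKO, was the 1 called. The 9 oligodendrocyte markers, all with positive log2 fold changes and none called, ranged from 252 to 445 CPM in WT and from 314 to 694 CPM in cKO, with the highest value in cKO replicate 3. The 9 astrocyte and Bergmann glia markers ranged from 120 to 148 CPM in WT and from 133 to 145 CPM in cKO. Of these, 3 had a positive and 6 a negative log2 fold change (median -0.38), and none was called. A single gene with a positive log2 fold change made up 38.3% of their sum, so the sum does not show the direction of most of them. The 8 microglia markers and the 9 markers of vessels, meninges and choroid plexus were low, at 17.6 to 34.0 and 11 to 20.3 CPM over all libraries.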

How the data were processed

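Nuclear RNA from sorted cerebellar nuclei was sequenced in 6 libraries (3 WT, 3 cKO). The authors deposited whole-number counts per gene, not normalized, named by NCBI gene identifiers; per the submitters' processing notes they used Subread and mm10. Not given in the sources used here are its version, annotation, strand setting and handling of multi-mapping reads. Symbols and start windows came from RefSeq (GRCm38.p6; 24570 of 24594 entries matched) and exon lengths from GENCODE M21 (GRCm38).

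EdgeR 4.0.16 in R 4.3.3 tested genotype over all 6 libraries: filterByExpr defaults (13115 genes), TMM factors of 0.982 to 1.02, robust quasi-likelihood fits, two-sided, Benjamini-Hochberg adjustment over all tested genes, calls below 0.05. SEs and 95% intervals are from that fit. Levels use library totals times TMM factors. The alternatives were limma-voom (limma 3.58.1), DESeq2 1.42.0, other scalings and filters, a replicate block and leaving out libraries. Per-library values are given for genes with an unadjusted p below 0.05, for the 3 most abundant per exon kb of each class and for a set of defining markers. From each other list the called genes, or with none called the 2 of smallest p, are named. The members and lists were chosen with earlier results of these data known. Summed levels carry no test.

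No pair of replicates was a repeat of 1 library: their counts differed with a chi-square of at least 4.03 for each degree of freedom. Results for some genes on the marker lists are not reported here.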

Additional observations from a re-analysis of the deposited data

How the results depend on the processing

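No member was called under 9 of the 14 alternatives. Without a filter on low counts 3 were called (Eomes, Lhx1 and Homer3), limma-voom called 1, the fit without replicate 1 of both genotypes, which was chosen after seeing the data, called 1, and fits without a single library called 0 to 2. Over all genes, edgeR called 76 (42 higher and 34 lower in cKO), against 277 (146 and 131) without the filter, 42 (23 and 19) by limma-voom, 43 (23 and 20) without replicate 1 of both genotypes, and 101 (69 and 32) when scaled by library totals. Leaving out single libraries gave 13 to 249 calls, 10 to 116 higher and 3 to 133 lower: 116 and 133 without WT replicate 1, 13 and 5 without WT replicate 2, 10 and 3 without WT replicate 3, 10 and 4 without cKO replicate 1, and 88 and 62 without cKO replicate 2. The summed Purkinje cell genes had a log2 ratio of -0.09. The mean of log2(CPM + 0.5) over the same genes, Klhl1 included, gave a difference of 0.068. The summed unipolar brush cell genes had a log2 ratio of 0.92 without Calb2 and 0.96 for Eomes and Lmx1a alone, in place of 0.45. The cause of these changes was not tested. Of the 25 tested members, 15 kept their direction under all 14 alternatives and 10, all with small differences in the main edgeR fit, did not. Scaling by library totals turned the log2 fold change of Calb1 to 0.0036, of Car8 to 0.029 and of Slc6a5 to 0.0034. Car8 was at 1.53e-04 with DESeq2 size factors, 0.0013 without the 4 most abundant entries in library sizes and 0.0022 by limma-voom, which gave 0.0016 for Slc6a5. Without replicate 1 of both genotypes, Gad1 was at -0.090, Slc32a1 at -0.11 and Pvalb at 0.032. Slc6a5 kept its negative direction in that fit but moved to -0.71 (edgeR adjusted p = 0.695). Leaving out single libraries gave ranges of -0.32 to 0.18 for Calb1, -0.30 to 0.30 for Car8, -0.26 to 0.059 for Itpr1, -0.060 to 0.017 for Rora, -0.091 to 0.14 for Gad1, -0.071 to 0.21 for Slc32a1, -0.48 to 0.45 for Slc6a5, -0.33 to 0.040 for Pvalb, -0.21 to 0.22 for Lgi2 and -0.087 to 0.37 for Calb2. With replicate number as a block, 1 member was called (Eomes) and 49 genes were higher and 41 lower over all genes. Same-numbered libraries correlated at 0.151, 0.0053 and -0.038 for replicates 1, 2 and 3, so the numbers were not taken to pair the libraries. Depth limited Klhl1, Sst, Npy, Tbr1, Lmx1a and Slc17a6, which had too few counts to test.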
